A study of Caenorhabditis elegans with 2 samples.

Results

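The genes described here encode RNA polymerase II, the general factor TFIID and the Mediator complex of the nematode Caenorhabditis elegans. They were the protein-coding genes of the Ensembl annotation named ama-1 or with a name that begins with rpb-, taf-, tbp- or mdt-, which gave 50 of 19973 nuclear protein-coding genes. Of these, 12 were RNA polymerase II subunit genes, 18 were TFIID genes and 20 were Mediator genes. The rule reads gene names and no measured value, but the set was proposed with earlier results of these data known. Mediator subunits known by other names, such as cdk-8 or dpy-22, fall outside that rule and are given separately.

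The study mapped where GEI-17, a PIAS-type E3 ligase for SUMO, lies on chromatin, by chromatin immunoprecipitation and sequencing (ChIP-seq) through its GFP tag. The 2 biological replicates (numbers 4 and 5, a single group) were whole young adults aged 64 h, grown from synchronized starved L1 larvae. Their sex was given as males and females pooled. All worms were of strain OP572, which has the background allele unc-119(tm4063) and the integrated transgene wgIs572, holding gei-17 fused at its C-terminal end to TY1, EGFP and 3xFLAG together with a working unc-119 copy. With 1 group there was no comparison of conditions, a strain without the tag was not analysed here, and the whole animal mixes all tissues.

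RNA polymerase II transcribes the protein-coding genes. TFIID, made of the TATA-binding protein and a set of associated factors (TAFs), recognises core promoters, and Mediator carries signals from sequence-specific factors to the polymerase through its head, middle and tail modules and a detachable kinase module. SUMO ligases such as GEI-17 attach the small protein SUMO to substrates, many of them chromatin and transcription proteins. The question addressed is whether GEI-17 lay at the promoters of the genes for this machinery, which is separate from whether it modified the proteins.

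GEI-17 summits that passed the irreproducible discovery rate (IDR) filter lay in the promoter windows of 5 of the 50 genes: mdt-19, rpb-11, mdt-26, mdt-6 and mdt-1.2. The window ran from 1000 bp upstream to 200 bp downstream of the annotated gene start. Of all protein-coding genes, 2.99% had such a summit, against 10% of the 50. Mediator genes supplied 4 of the 5 and the polymerase 1. No TFIID gene had one, which among 18 genes is near the share of all genes. The 5 genes were chosen by the IDR list itself, and their levels below are a description with no test.

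The sequence 100 bp to each side of the pooled summit is printed for 4 of the 5 genes, because these are regions on which the later statements about a strong signal rest. Each is read 5′ to 3′ on the strand of the named gene, from the RefSeq genome sequence (build ce11, WBcel235). Capitals mark matches on either strand to 6 short motifs, named with their shares after the gene values.
rpb-11: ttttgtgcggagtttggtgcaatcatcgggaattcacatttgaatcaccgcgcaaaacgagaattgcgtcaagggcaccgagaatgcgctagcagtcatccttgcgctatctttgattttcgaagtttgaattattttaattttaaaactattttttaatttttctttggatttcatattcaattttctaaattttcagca
mdt-26: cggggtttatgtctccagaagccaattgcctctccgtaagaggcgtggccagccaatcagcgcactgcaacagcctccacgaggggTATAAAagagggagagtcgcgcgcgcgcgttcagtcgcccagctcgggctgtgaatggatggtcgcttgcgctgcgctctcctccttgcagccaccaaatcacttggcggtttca
mdt-6: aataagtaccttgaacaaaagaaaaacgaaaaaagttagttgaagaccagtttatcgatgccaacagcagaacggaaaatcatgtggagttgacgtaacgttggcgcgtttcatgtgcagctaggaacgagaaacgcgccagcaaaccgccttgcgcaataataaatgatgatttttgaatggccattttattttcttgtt
mdt-1.2: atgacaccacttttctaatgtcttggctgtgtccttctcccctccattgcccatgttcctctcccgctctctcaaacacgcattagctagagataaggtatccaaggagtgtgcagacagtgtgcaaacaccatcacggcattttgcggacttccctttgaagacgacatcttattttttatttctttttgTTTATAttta

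These windows spanned chrII:14059886-14060086 for rpb-11, chrII:5661050-5661250 for mdt-26, chrV:7060472-7060672 (minus strand) for mdt-6 and chrX:17151253-17151453 for mdt-1.2. The mdt-26 window stood apart by composition, with 60.2% G and C, against 34.8% at rpb-11, 39.8% at mdt-6 and 42.8% at mdt-1.2. The median was 41.3% over the 29 genes with a pooled candidate, 40.3% over the 5373 distinct highest pooled summits of all genes and 45.8% over the 470 distinct highest summits that passed IDR.

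The height of a summit is the signal that the authors deposited with it, a number of the peak caller whose scale is not stated. It orders summits within a list and was not compared in size between lists. The lists of replicate 4, replicate 5 and the pooled replicates held 30000 candidate summits each, and rank 1 is the highest. The IDR list held 1030 summits, all of them at the top of the pooled ranking, down to a signal of 110.4. Read counts were not used here, so the depth behind each value is unknown. The candidates are deposited as peaks and background together, so a candidate alone is not a called region.

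mdt-19, which encodes a Mediator subunit assigned here to the head, had the highest signal of the 50 genes. Its pooled summit had a signal of 241.5 and rank 221, with 108.0 and rank 213 in replicate 4 and 133.1 and rank 256 in replicate 5. The gene occupies III:2598053–2603212 on the plus strand, and the summit was intergenic, 781 bp upstream of the start. It was also 238 bp upstream of apb-1, an adaptor protein gene that starts on the opposite strand, and apb-1 had the nearest protein-coding start. The replicates placed the summit 795 and 773 bp upstream, and the region was 205 bp wide.

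rpb-11 encodes a small polymerase subunit that pairs with the product of rpb-3 during assembly of the enzyme. The pooled signal was 201.9 with rank 318, replicate 4 gave 89.0 with rank 333, and replicate 5 gave 105.4 with rank 430. The gene lies at II:14060085–14060624 on the plus strand, and the summit was intergenic, 99 bp upstream of its start, at 90 bp in replicate 4 and 99 bp in replicate 5. The nearest gene upstream of it was 7780 bp away, so the summit had no close upstream neighbour, although it also fell 753 bp upstream of W01G7.4, the next gene on the same strand. The replicate summits were 9 bp apart.

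mdt-26 encodes the worm counterpart of MED26, which in mammals connects Mediator with elongation factors. The pooled signal was 171.6 with rank 444. Replicate 4 gave 58.4 with rank 873 and replicate 5 gave 129.9 with rank 280. The gene lies at II:5661181–5665243 on the plus strand, and the pooled summit was intergenic, 31 bp upstream of the start, where replicate 5 also had its summit. Replicate 4 placed its summit 146 bp downstream of the start, 177 bp away, and the pooled list held a lower summit of signal 38.5 at 175 bp downstream. The region was the widest among the 29 genes, at 564 bp, and the summit also lay 364 bp upstream of ift-43, which starts on the opposite strand.

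mdt-6, also called let-425, encodes a conserved subunit of the Mediator head. Its pooled signal was 139.2 with rank 667, with 61.9 and rank 775 in replicate 4 and 66.8 and rank 1104 in replicate 5. The gene lies at V:7058547–7059624 on the minus strand, and the summit at V:7060572 was 948 bp upstream, near the far edge of the window. It fell in the 5' UTR of Y57E12AL.1, 42 bp downstream of that gene's start, and 102 bp upstream of Y57E12AL.6, which lies between the summit and mdt-6 and ends 38 bp before the mdt-6 start. The replicates placed the summit 929 and 931 bp upstream, 2 bp apart. Position alone cannot tell to which of the 3 genes this region belongs.

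mdt-1.2 encodes a Mediator middle subunit of the MED1 family, the only gene of the 5 on the X chromosome. The pooled signal was 116.7 with rank 914, close to the lowest signal of the IDR list. Replicate 4 gave 35.2 with rank 3339 and replicate 5 gave 74.5 with rank 860. The gene lies at X:17151522–17154647 on the plus strand, and the summit was 169 bp upstream in intergenic sequence, at 180 and 169 bp in the replicates. Its window held no second pooled summit, and no other gene shared the summit. In replicate 4 it ranked well below the 1030 highest summits.

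taf-4, which encodes a scaffold subunit of TFIID, was the gene just below the boundary. Its pooled signal was 103.4 with rank 1202, with 35.1 and rank 3362 in replicate 4 and 75.5 and rank 830 in replicate 5. The values of taf-4 and mdt-1.2 were therefore close in every list, although 1 passed the filter and the other did not. The taf-4 summit lay 282 bp upstream of the start and 642 bp upstream of pqn-59 on the opposite strand, and its region was the narrowest of the 29, at 115 bp. The next genes were lower, taf-12 at 71.7 and mdt-22 at 67.4.

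**Figure D1:**
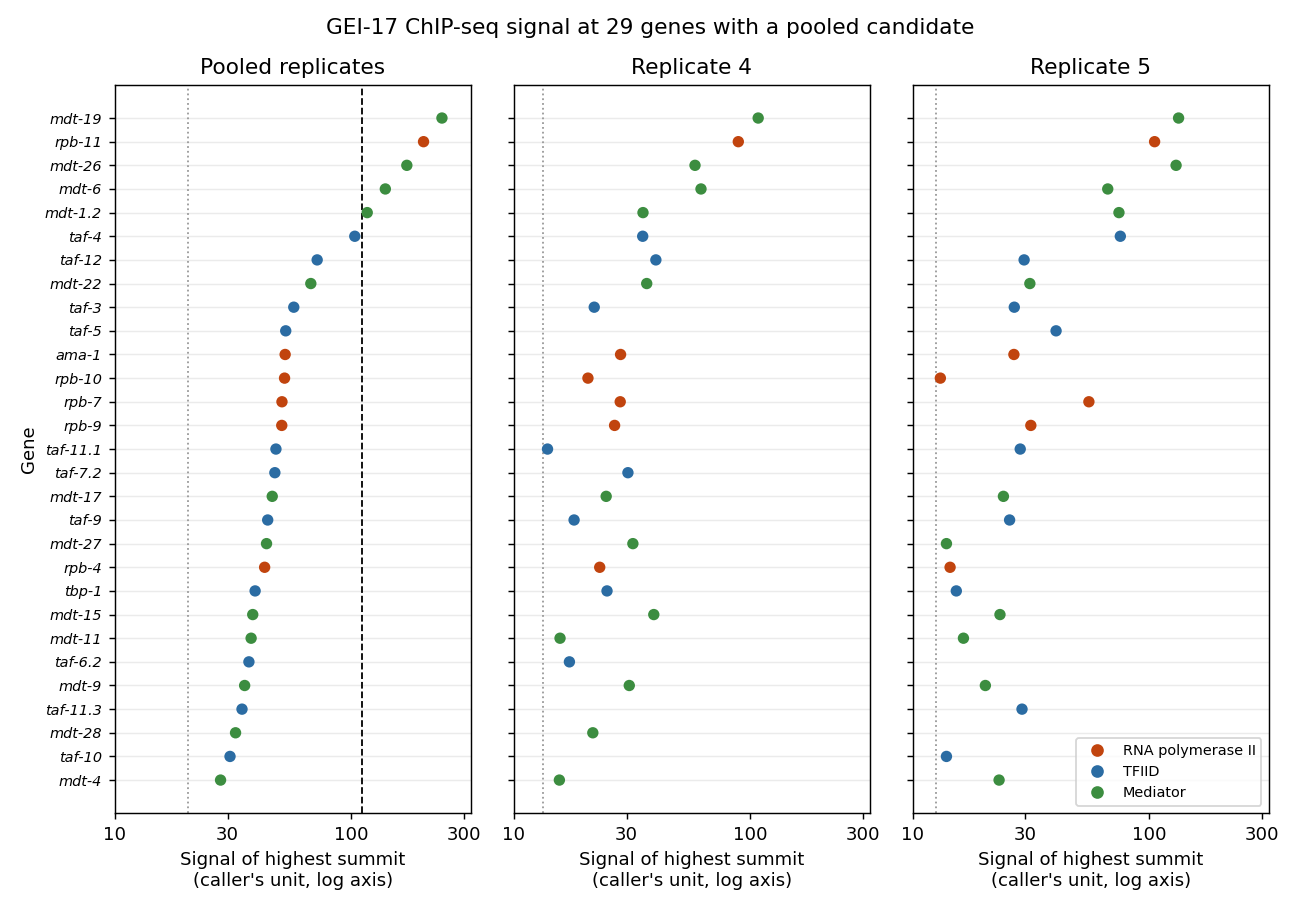
Signal of the highest summit in the promoter window for each of the 29 genes with a pooled candidate, in the pooled list and in replicates 4 and 5 (log axes, each list in its own scale). Colours give the complex, dotted lines the lowest signal of each list and the dashed line the lowest pooled signal that passed IDR (110.4); a gene with no point in a panel had no candidate there. Only the 5 genes from mdt-19 to mdt-1.2 lie right of the dashed line, and taf-4 lies just left of it.

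Candidates of any height were present for 29 of the 50 genes in the pooled list (58.0%), against 30.9% of all protein-coding genes. The counts were 30 of 50 (60.0%) against 32.7% in replicate 4, and 29 of 50 (58.0%) against 30.5% in replicate 5. A candidate in both replicates was present for 24 of 50 genes (48.0%), against 19.7% of all genes. No list named 15 of the 50 genes, a count for which the share of all genes was not computed. Of the 29 with a pooled candidate, 5 passed IDR (17.2%), against 9.68% of the 6175 genes with one. The highest −log10 q value of the pooled list was carried by 6 (20.7%, the 5 and taf-4), against 16.4%. All 1030 summits that passed IDR carried that value, so only taf-4 is added to the 5. With fewer than 10 genes on the members' side, these last shares turn on 1 or 2 genes.

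The median pooled signal was 48.0 over the 29 genes and 41.2 over all 6175 genes with a candidate, and 20 of the 29 lay above the latter. In the list of replicate 4 the median was 25.8 for the members and 22.4 for all genes, and in replicate 5 it was 26.9 and 26.5. The 24 genes outside the IDR list ranged from 28.0 for mdt-4 to 103.4 for taf-4.

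Among the 12 polymerase genes, 6 had a pooled candidate (30.9% of all genes had one) and 1 passed IDR (2.99% of all genes), and rpb-11 was far above the rest. ama-1 encodes the largest subunit, which carries the catalytic centre and the C-terminal repeat domain, and its summit lay 415 bp upstream of the start at a pooled signal of 52.5 (28.3 in replicate 4, 26.8 in replicate 5). rpb-10, rpb-7 and rpb-9 followed at 52.2, 50.9 and 50.8, and rpb-4 was lowest at 43.0. The products of rpb-4 and rpb-7 form the stalk of the enzyme. These 5 values spanned less than 10 units, between the 53.1 and the 65.1 percentile of all genes with a candidate.

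The replicates ranked some of the 5 lower polymerase genes alike and others not. rpb-9 had rank 7152 in replicate 4 and 7072 in replicate 5, and rpb-4 and rpb-10 were the lowest of the 5 in both. rpb-7 had rank 1737 in replicate 5, at 55.6 and 105 bp upstream, but rank 6188 in replicate 4, where the summit was 984 bp upstream. rpb-10, for a small subunit shared by all nuclear polymerases, had rank 13831 in replicate 4 and 28989 in replicate 5, near the end of the list. The rpb-10 summit lay in a coding exon of the neighbour Y37E3.1, and the rpb-4 summit in an intron of mtch-1, the start of which was the nearest. Of the other subunit genes, rpb-6 had a candidate in both replicates (13.7 in replicate 4, 31.7 in replicate 5) but none in the pooled list. rpb-2, which encodes the second largest subunit, and rpb-3, rpb-5, rpb-8 and rpb-12 had none in any list.

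TFIID genes had a pooled candidate in 11 of 18 cases, against 30.9% of all genes. None passed IDR, a count that is near the 2.99% of all genes that did. After taf-4 came taf-12, which encodes the histone-fold partner of the TAF4 protein, at 71.7 and 882 bp upstream, with 39.9 in replicate 4 and 29.6 in replicate 5. taf-3 on the X chromosome stood at 57.1 and taf-5, a WD40 repeat subunit, at 52.8. taf-11.1, taf-7.2, taf-9, taf-6.2, taf-11.3 and taf-10 ranged from 48.0 down to 30.7. The summit of taf-9 was in a coding exon of the upstream gene mlc-5, and that of taf-5 in a coding exon of the overlapping gene F30F8.5.

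tbp-1 encodes the TATA-binding protein itself and had a low candidate. Its pooled signal was 39.2, with 24.8 in replicate 4 and 15.3 in replicate 5, and the summit lay 91 bp downstream of the start in its own coding exon. Its percentile among all genes with a candidate was 46.3. taf-1, taf-2, taf-6.1, taf-8 and taf-13 had no candidate in any list, and taf-7.1 and taf-11.2 had one in replicate 4 alone (ranks 27988 and 20418 of 30000). The paralogues taf-11.1, taf-11.2 and taf-11.3 therefore differed in whether a pooled candidate was present.

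Mediator genes named mdt- had a pooled candidate in 12 of 20 cases and passed IDR in 4, against 30.9% and 2.99% of all genes. For mdt-19 and mdt-6 among these 4, another gene had the nearest start to the summit. Of 9 Mediator genes under other names, 0 passed. The modules, as assigned here, hold too few genes to set against those shares. The head had 5 of 9 with a candidate and 2 that passed. The middle had 3 of 6 and 1, and the tail 2 of 3 and 0. mdt-26 and mdt-28, which were given no module, both had one, and mdt-26 passed. Below the 4, mdt-22 of the head stood at 67.4 (36.5 in replicate 4, 31.3 in replicate 5), and its pooled and replicate 4 summits lay 71 and 76 bp upstream while replicate 5 had its highest summit 603 bp upstream. mdt-17 and mdt-11, also of the head, had 46.3 and 37.7, and the mdt-17 summit lay 144, 144 and 145 bp downstream of the start in the 3 lists, in its own coding exon.

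mdt-15, a tail subunit known in C. elegans for its part in lipid metabolism, had 38.3 in the pooled list at 61 bp downstream. Replicate 4 gave 39.1 with rank 2476 at 100 bp downstream, and replicate 5 gave 23.4 with rank 13475 at 869 bp upstream, so the replicates named different summits. The other tail gene with a candidate, mdt-27, also had its pooled summit within the gene, 158 bp downstream in an intron, at 43.8. The middle genes mdt-9 and mdt-4 had 35.4 and 28.0, and mdt-28 had 32.4, in a coding exon of the upstream gene atx-3. mdt-8, mdt-21, mdt-29, mdt-30 and mdt-31 had no candidate in any list, mdt-18 had one in replicate 4 alone (18.4), and mdt-10 and mdt-20 in replicate 5 alone (14.1 and 16.5).

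**Figure D2:**
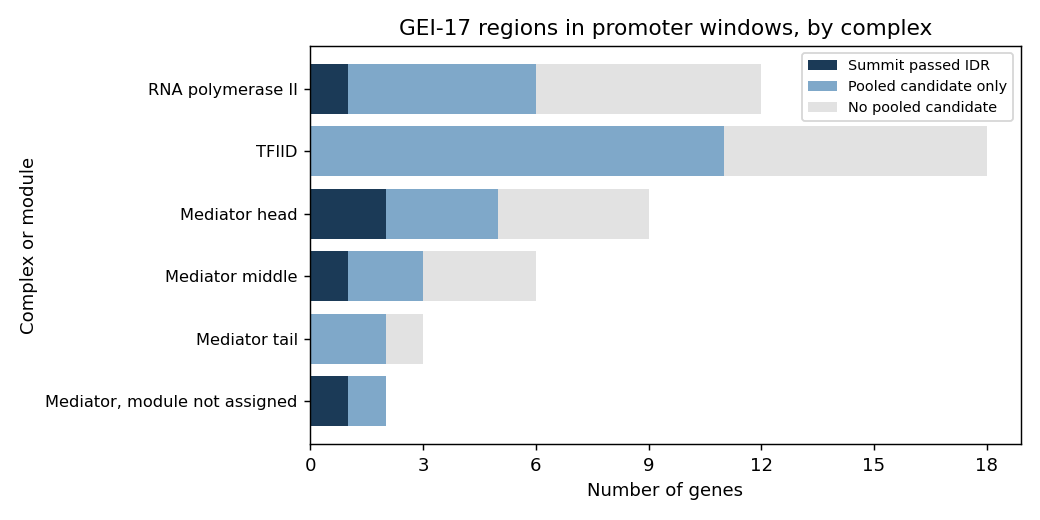
Number of genes in each complex or Mediator module (horizontal axis), divided into those with a summit that passed IDR, those with a pooled candidate only and those with no pooled candidate in the promoter window. Modules are as assigned here. Of the 18 TFIID genes 11 had a candidate and none passed, and of the 20 Mediator genes 12 had one and 4 passed; over all genes the shares were 30.9% and 2.99%, and the difference between the complexes was not tested.

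When each replicate was ranked alone, the highest genes changed at the margin. Among the 1030 highest summits of replicate 4 were those of 4 of the 50 genes (8.0%, against 2.80% of all genes): mdt-19, rpb-11, mdt-26 and mdt-6. Replicate 5 named 5 (10%, against 2.80%): mdt-19, rpb-11, mdt-26, mdt-1.2 and taf-4. The 3 genes named by both, mdt-19, rpb-11 and mdt-26, made up 6.0% of the 50, against 1.93% of all genes. mdt-1.2 and taf-4 thus ranked high in replicate 5 alone, and mdt-6 in replicate 4 alone, where its rank of 775 compares with 1104 in replicate 5.

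The highest summits of the 2 replicates often lay more than 100 bp apart within the same window. Pooled regions were mostly 444 bp wide, so summits somewhat farther apart than 100 bp can lie in overlapping regions. Of the 24 genes with a candidate in both, 9 had the 2 highest summits within 100 bp of each other (37.5%, against 47.7% of the 3933 genes with both). The median distance was 154 bp, against 110 bp over all such genes and 26 bp over all genes that passed IDR. Of the 5 genes that passed, 4 had distances of 2 to 22 bp, and mdt-26 had 177 bp. Without these 5 and taf-4, 4 of 18 genes had summits within 100 bp (22.2%; taf-12, taf-3, rpb-10 and mdt-17), against 39.5% of the 3196 genes outside the IDR list and the highest summits of each replicate. The share of 22.2% rests on few genes. The median distance without the 5 and taf-4 was 228 bp, against 148 bp. Replicate 5 ranked 11 of the 24 higher and replicate 4 the other 13, while 49.1% of all genes with both ranked higher in replicate 5.

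**Figure D3:**
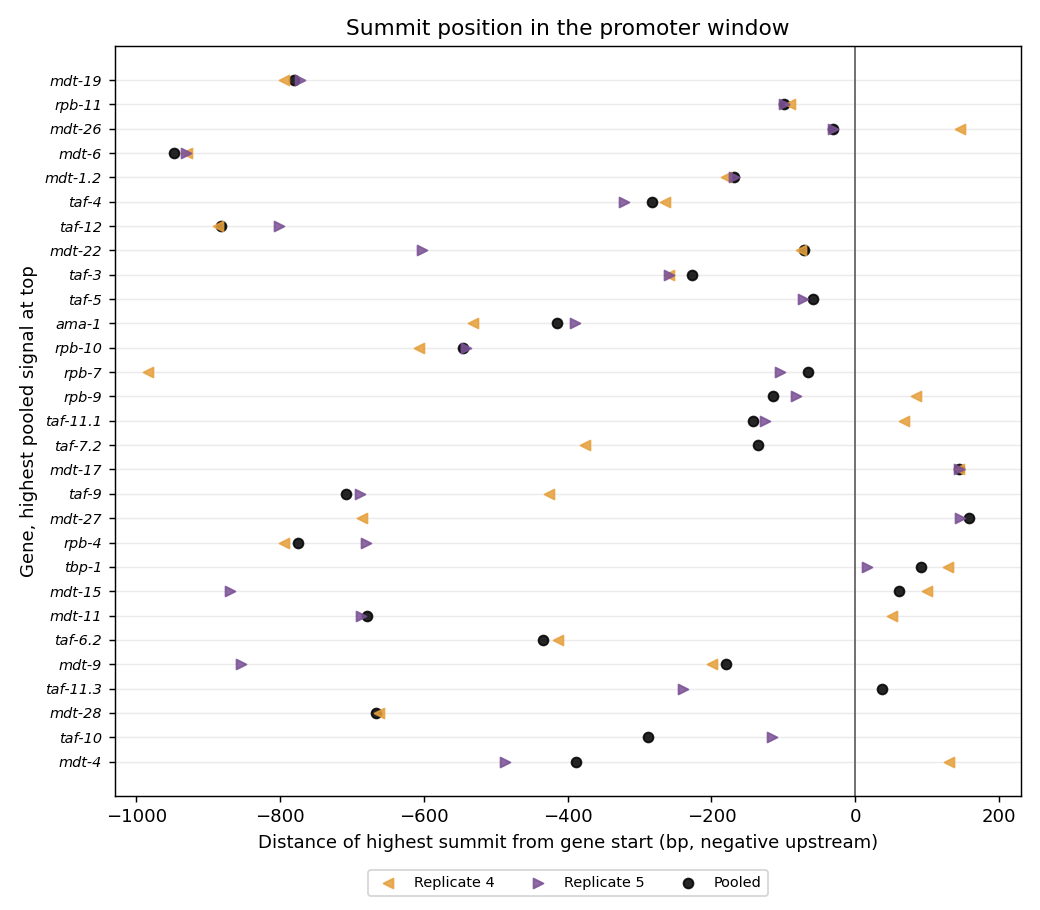
Distance of the highest summit from the gene start (bp, negative upstream) for the 29 genes with a pooled candidate, ordered by pooled signal; black circles are the pooled list, left-pointing triangles replicate 4 and right-pointing triangles replicate 5. The symbols nearly coincide for mdt-19, rpb-11, mdt-6 and mdt-1.2, and also for the lower mdt-17. For mdt-26, which passed IDR, the replicates lie 177 bp apart, and for rpb-7, mdt-15 and mdt-9 they lie 879, 969 and 655 bp apart.

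Most summits lay upstream of the start, but upstream sequence makes up 83.3% of the window, so evenly placed summits would give about the same share. The count was 24 of the 29 (82.8%), against 80.7% of all genes with a candidate, and the median position was 180 bp upstream, against 266 bp. The 5 downstream summits belonged to mdt-17, mdt-27, tbp-1, mdt-15 and taf-11.3. By annotation, 12 of the 29 summits were intergenic (41.4%, against 56.4% of all genes with a candidate) and 9 fell in coding exons (31.0%, against 19.4%). Introns held 4 (against 9.39%), 5' UTRs 3 (against 6.82%) and a 3' UTR 1 (against 3.21%), that of rpb-9, in the upstream gene Y97E10AR.6. None fell in a non-coding exon, against 4.76%. No annotated non-coding RNA gene other than piRNA genes lay within 200 bp of any of the 29 summits.

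Many of these promoters lie close to a neighbouring gene, so a summit can belong to more than 1. The distance from the gene start to the next protein-coding gene upstream had a median of 260.5 bp over the 50 genes and 937.0 bp over all protein-coding genes. The upstream neighbour was on the same strand for 32 of the 50 genes, against 53.8% of all genes. The highest pooled summit also lay in the window of another protein-coding gene for 11 of 29 genes (37.9%, against 26.9%), among them mdt-19, rpb-11, mdt-26 and mdt-6. The member itself had the nearest protein-coding start for 21 of the 29 (72.4%, against 82.3% of all genes with a candidate), which included rpb-11, mdt-26 and mdt-1.2 of the 5 that passed, and not mdt-19 or mdt-6.

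Close upstream neighbours on the same strand, within 500 bp, were present for 22 of the 50 genes, against 4105 of all 19973 protein-coding genes. This arrangement in worms includes genes transcribed together in operons. Of these 22 genes, 11 had a pooled candidate (50%), against 36.0% of all genes so placed. Of the other 28, 18 had one (64.3%), against 29.6% of the other genes. The split at 500 bp was chosen for this description. Among the 22 were mdt-6, rpb-9, tbp-1, mdt-15 and rpb-2.

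The 6 motifs sought in the 201 bp around each summit, on either strand, were the TATA box (TATAAA), the GAGA repeat (GAGAGAGA), the E-box (CACGTG), the GC box (GGGCGG), the heat shock element (TTCTAGAA) and a T run (TTTTTTTT). No motif is contained in another. The TATA box was found at 6 of the 29 summits (mdt-26, mdt-1.2, taf-4, ama-1, rpb-9 and mdt-27) and in 17.6% of the 5373 distinct highest pooled summits, and in the mdt-26 sequence above it stands just upstream of the summit. The GAGA repeat was found at 2 of the 29, against 4.21% of all, the T run at mdt-22, mdt-27 and taf-7.2, against 16.6%, the GC box at taf-10, against 7.80%, and the heat shock element at rpb-9, against 1.30%. The E-box was at none of the 29, against 5.29% of all. Over the 470 distinct highest summits that passed IDR, the TATA box was in 9.79%, the GAGA repeat in 8.3% and the E-box in 8.51%. The GC box was in 12.6% of those 470, the T run in 10.9% and the heat shock element in 2.13%. The rpb-11 and mdt-6 windows held none of the 6.

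Other genes of the transcription machinery were described from 4 lists, to be read beside the 30.9% of all genes with a pooled candidate and the 2.99% that passed IDR. The counts of 0 and 1 that passed in each are too small to set apart from the latter. Of 9 Mediator genes with other names that matched the annotation, 4 had a pooled candidate and 0 passed IDR; the highest was dpy-22, a kinase module subunit on X, at 106.8 in the pooled list (33.4 in replicate 4, 66.9 in replicate 5), just below the boundary, and cdk-8, the kinase of that module, had 48.0. Of 18 general transcription factor genes, 10 had one and 1 passed, pqn-51, at 216.3 (98.7 and 123.4 in the replicates), 38 bp upstream of its start and shared with another gene. Of 22 elongation and termination factor genes, 12 had one and 1 passed, xrn-2, which encodes a nuclear exonuclease that acts in termination, at 118.1 (75.7 and 34.4). Of 10 genes for subunits of RNA polymerases I and III, 5 had one and 1 passed, rpac-19, for a subunit shared by both, at 140.8 (85.6 and 51.1). Median signals over the genes with a candidate were 39.5, 32.3, 33.9 and 57.9 in the order named, and all 3 summits that passed were higher in rank in replicate 4 than in replicate 5.

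Outside the promoter window, 7 more of the 50 genes had a summit that passed IDR within 5000 bp of the start, so that 12 of 50 (24.0%) had one in all, against 9.53% of all protein-coding genes. The strongest, 2931 bp upstream of mdt-11, had a signal of 295.3 with rank 141 and lay in the windows of larp-1 and wip-1. That of mdt-4, with a signal of 124.5, lay within the gene itself, in an intron 1321 bp downstream of the start. The others lay 4694 bp upstream of mdt-18 (127.3) and 1205 bp upstream of mdt-8 (111.0), and 2620, 3540 and 1561 bp downstream of the starts of mdt-9 (123.4), tbp-1 (120.0) and mdt-22 (117.8), in lsm-3, trd-1 and clpp-1. The distance was chosen for this description.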

How the data were processed

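ChIP-seq of GEI-17 tagged with GFP was deposited as 4 region lists: 1 for each of 2 biological replicates, 1 for their pooled alignments and 1 of the pooled summits that passed IDR. Per the listings deposited beside the samples, candidates were called on the ce11 alignments with a control alignment. Neither the peak caller nor the IDR cut-off was named in the labels or listings. The authors deposited for each summit a signal and the −log10 of a q value, which had a ceiling (2.89 in the pooled list, reached by 1949 summits). Depth was not given, so precision per region is unknown.

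Summit positions were joined to gene starts of Ensembl release 115 (WBcel235, ce11 coordinates) and the highest summit per window was kept. Bases were read from the RefSeq assembly of that build, where 99.9% of 24287 annotated start codons read ATG. Results are levels, counts and medians, the main ones beside those of all protein-coding genes, with no test, since there is 1 group and genes are not replicates. The members, lists, modules, motifs and distances were chosen with earlier results of these data known. The genes named were all members, and of the other lists those that passed IDR; dpy-22, cdk-8 and the genes with summits beyond the window were named after their values were seen. The joining step was tested on simulated starts and summits. Alternatives were other windows, transcript starts, single replicates, other thresholds and nearest starts. Python 3.11.15, numpy 2.4.6, pandas 2.3.3 and matplotlib 3.10.9 were used. The sequence around 1 of the 5 summits is not reported here.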

Additional observations from a re-analysis of the deposited data

How the results depend on the processing

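The 5 genes that passed IDR became 3 with the narrow window (500 bp upstream to 100 bp downstream; rpb-11, mdt-26 and mdt-1.2), 3 with the stricter threshold (the 515 highest IDR summits; mdt-19, rpb-11 and mdt-26) and 3 when a summit counted for the nearest start alone (rpb-11, mdt-26 and mdt-1.2). They were 6 with the wide window (2000 bp upstream to 500 bp downstream, adding mdt-8) and 6 with the 2000 highest pooled summits (adding taf-4). With 1 replicate left out, the 1030 highest summits of the other replicate took the place of the IDR list. Without replicate 5 these named 4 genes (mdt-1.2 lost), and without replicate 4 they named 5 (mdt-6 lost, taf-4 added). All genes moved in share as well, from 2.99% to 2.24%, 1.57% and 2.34% under the first 3, 4.19% with the wide window, 5.19% with the 2000 highest and 2.80% in either replicate alone. The narrow window gave 11 genes with a candidate in both replicates, 7 that shared their summit and a median distance between replicates of 60 bp. The wide window gave 22 that shared their summit, a median signal of 52.2, a median position of −227 bp and a distance of 189.5 bp; transcript starts gave 172 bp. With 1 replicate left out, the median position was between −320.5 and −259 bp. For the genes with both replicates, shared summits, signals, positions and distances, the values over all genes were not computed. A shift common to all genes therefore cannot be told apart there. The count of genes with a pooled candidate ranged from 22 with the narrow window (21.1% of all genes) to 33 with the wide one (42.1%). The cause was not tested. No paired analysis was possible because there was 1 group.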

Other observations

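Region width was fixed for most candidates: 98.0% of the pooled regions and 53.4% of those that passed IDR were 444 bp wide. Of the 29 genes, 26 had a region of that width; the exceptions were taf-4, mdt-19 and mdt-26.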
